A study of Mus musculus with 6 samples.

Results

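Chemokine receptors are seven-pass membrane proteins that let a leukocyte sense and move along a gradient of chemokine, and most of them signal through the inhibitory class of heterotrimeric G proteins. In the lung they govern which leukocytes enter the airspace, while the alveolar macrophage itself is a resident cell of the alveolar surface that clears particles, surfactant and microbes. The genes described here are Cxcr1, Cxcr2, Cxcr4, Ccr1, Ccr2, Cx3cr1 and Ccrl2, which make 7 of the 26428 genes in the deposited table. They were picked from the chemokine receptor family with their levels in these libraries and their differences between the groups already known, so their own values are given as a description, with no test. All 7 were among the 14797 genes that passed the low-count filter.

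The libraries came from RNA of alveolar macrophages of mouse lung. The KO libraries (3) carry the genotype label Rack1{delta}Mye, a deletion of Rack1 in the myeloid lineage, and the WT libraries (3) carry the label Rack1F/-, so that the control is not labelled as an unmodified mouse. Rack1 encodes a WD-repeat scaffold protein of the small ribosomal subunit and of several signalling complexes. The Cre driver, the deleted part of the gene, the age and sex of the mice and the way the macrophages were collected are not given in the sources used here. The labels do not tie the libraries to separate animals, so p-values measure only the spread between these libraries. In such bulk RNA a lower or higher number of cells of a type and a lower or higher RNA level per cell cannot be told apart.

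Levels are given as CPM, a count normalised to the size of its library and scaled by TMM factors, and as the deposited FPKM where genes are compared with each other, since FPKM divides by transcript length. Library totals lay between 51894849 and 56082536 count units in KO libraries and between 54871157 and 66163430 in WT libraries. Rack1 itself stood at 38.6, 38.2 and 34.1 CPM in KO libraries, against 77.3, 83.5 and 81.1 CPM in WT libraries, so the labels and the targeted gene pointed the same way and transcript remained in every KO library. All 15 alveolar macrophage markers listed were detected in both groups, with a summed level of 89578 to 159374 CPM in KO libraries and 78646 to 155064 CPM in WT libraries. Most of each sum was Chil3, at 76924 to 141708 CPM in KO libraries and 71008 to 142869 CPM in WT libraries. The sums therefore say little about the other markers. The Y-linked gene Eif2s3y stood at 15.99, 2.68 and 0.681 CPM in KO libraries, against 0.422, 0.357 and 0.560 CPM in WT libraries, with KO replicate 1 far above the others. Xist, expressed from the inactive X chromosome, stood at 0.741, 10.4 and 13.1 CPM in KO libraries, against 70.6, 13.8 and 13.4 CPM in WT libraries, with WT replicate 1 far above the others. The part of these differences in the results was not tested. Across all tested genes, 878 were higher in KO libraries (5.93%) and 889 were lower (6.01%), by edgeR's quasi-likelihood test at an adjusted p under 0.05.

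Cxcr1 and Cxcr2 encode neutrophil receptors for ELR-type CXC chemokines, and they lie side by side on mouse chromosome 1. Cxcr1 (ENSMUSG00000048480) occupied chr1:74191785-74194631 on the minus strand and Cxcr2 (ENSMUSG00000026180) chr1:74153989-74161246 on the plus strand of GRCm38, with 30.5 kb between them. Ccrl2 (ENSMUSG00000043953), an atypical receptor that binds the attractant chemerin without known signalling, occupied chr9:111054486-111057519 on the minus strand. The 250 bases before the annotated start of these 3 genes (RefSeq, GRCm38.p6) are shown because these were the receptors with the largest differences. Each is written 5′ to 3′ on the strand of its gene, and capitals mark a motif described after them. The windows are chr1:74194632-74194881 for Cxcr1, chr1:74153744-74153993 for Cxcr2 and chr9:111057519-111057768 for the first of 3 annotated starts of Ccrl2.
Cxcr1: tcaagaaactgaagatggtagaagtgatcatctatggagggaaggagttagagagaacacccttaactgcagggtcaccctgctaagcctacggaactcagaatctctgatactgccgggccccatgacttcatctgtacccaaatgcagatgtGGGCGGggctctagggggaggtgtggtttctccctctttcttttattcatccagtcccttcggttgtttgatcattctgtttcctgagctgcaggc
Cxcr2: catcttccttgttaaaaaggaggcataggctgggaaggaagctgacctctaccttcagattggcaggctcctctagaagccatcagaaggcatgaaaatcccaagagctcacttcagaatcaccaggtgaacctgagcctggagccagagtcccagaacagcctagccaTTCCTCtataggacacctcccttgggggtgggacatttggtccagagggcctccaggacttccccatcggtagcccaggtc
Ccrl2: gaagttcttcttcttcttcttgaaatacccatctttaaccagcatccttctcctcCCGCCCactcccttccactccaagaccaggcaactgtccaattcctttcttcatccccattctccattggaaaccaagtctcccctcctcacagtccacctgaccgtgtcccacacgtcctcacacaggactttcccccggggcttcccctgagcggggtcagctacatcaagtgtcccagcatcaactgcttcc

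These windows were searched on both strands for the letters GAGGAA (the core bound by PU.1, a myeloid factor), TTGCNNAA (C/EBP), TGANTCA (AP-1), the interferon response element (GAAA, 2 free bases, GAAA) and GGGCGG (the GC box). The Cxcr1 window held a GC box at 96 to 91 bases before the start, and the Cxcr2 window held the PU.1 letters on the opposite strand at 81 to 76 bases. The Ccrl2 window held a GC box on the opposite strand at 195 to 190 bases. None of the 5 motifs was shared by Cxcr1 and Cxcr2. Among the other members, Ccr1 held the PU.1 letters once, Cxcr4 held 3 GC boxes, and the windows of Ccr2 and Cx3cr1 held none of the letters searched. Of 32851 mouse promoter windows of the same length, 32.7% held the GC box, 23.3% the PU.1 letters, 9.56% the C/EBP letters, 6.75% the AP-1 letters and 2.98% the interferon element, so these matches are common ones. A match is a string of letters, not a measured binding site.

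In KO macrophages the transcripts of the neutrophil-type receptors stood far above those of WT macrophages, by 18.7-fold for Cxcr1 and 11.1-fold for Cxcr2, and Ccrl2 stood 2.45-fold higher. The monocyte-lineage receptors Ccr2 and Cx3cr1, the homing receptor Cxcr4 and the inflammatory receptor Ccr1 overlapped between the groups. Of the 7 receptors, 3 were called higher by edgeR and 4 were not called, against a background of 11.9% called in either direction among all tested genes. The same 3 had every KO library above every WT library, which held for 15.3% of all tested genes, and 0 had every KO library below every WT library, which held for 15.9%. The choice of members fixes these counts, so nothing is read from them.

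Cxcr1 stood at 55.7, 49.5 and 78.2 CPM in KO libraries, against 3.58, 3.86 and 2.40 CPM in WT libraries. The lowest KO library was far above the highest WT library, and KO replicate 3 was the highest of all. The means were 61.1 ± 15.1 CPM in KO libraries and 3.28 ± 0.772 CPM in WT libraries (SD, n = 3 each). The fitted log2 fold change was 4.23 ± 0.24 (SE), and it lay between 4.01 and 4.36 when 1 library was left out.

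Cxcr2 stood at 13.9, 19.1 and 26.3 CPM in KO libraries, against 1.58, 2.14 and 1.62 CPM in WT libraries. Again no library of one group entered the range of the other, and the KO values were spread more widely than the WT values. The means were 19.8 ± 6.18 CPM in KO libraries and 1.78 ± 0.313 CPM in WT libraries (SD, n = 3 each), with a fitted log2 fold change of 3.47 ± 0.25 (SE) and a range of 3.21 to 3.67 with 1 library left out. On the FPKM scale Cxcr1 exceeded Cxcr2 by 8.16, 5.29 and 6.09 times in KO libraries, against 4.61, 3.69 and 3.03 times in WT libraries, so both groups held more Cxcr1 than Cxcr2 transcript per length.

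Ccrl2 stood at 17.7, 22.3 and 32.1 CPM in KO libraries, against 9.67, 10.8 and 8.94 CPM in WT libraries. The groups did not overlap, and the gap between the lowest KO and the highest WT library was narrower than for Cxcr1 and Cxcr2. The means were 24.1 ± 7.36 CPM in KO libraries and 9.81 ± 0.942 CPM in WT libraries (SD, n = 3 each), with a log2 fold change of 1.30 ± 0.21 (SE). Without KO replicate 3, the highest library, it was 1.03.

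**Figure D1:**
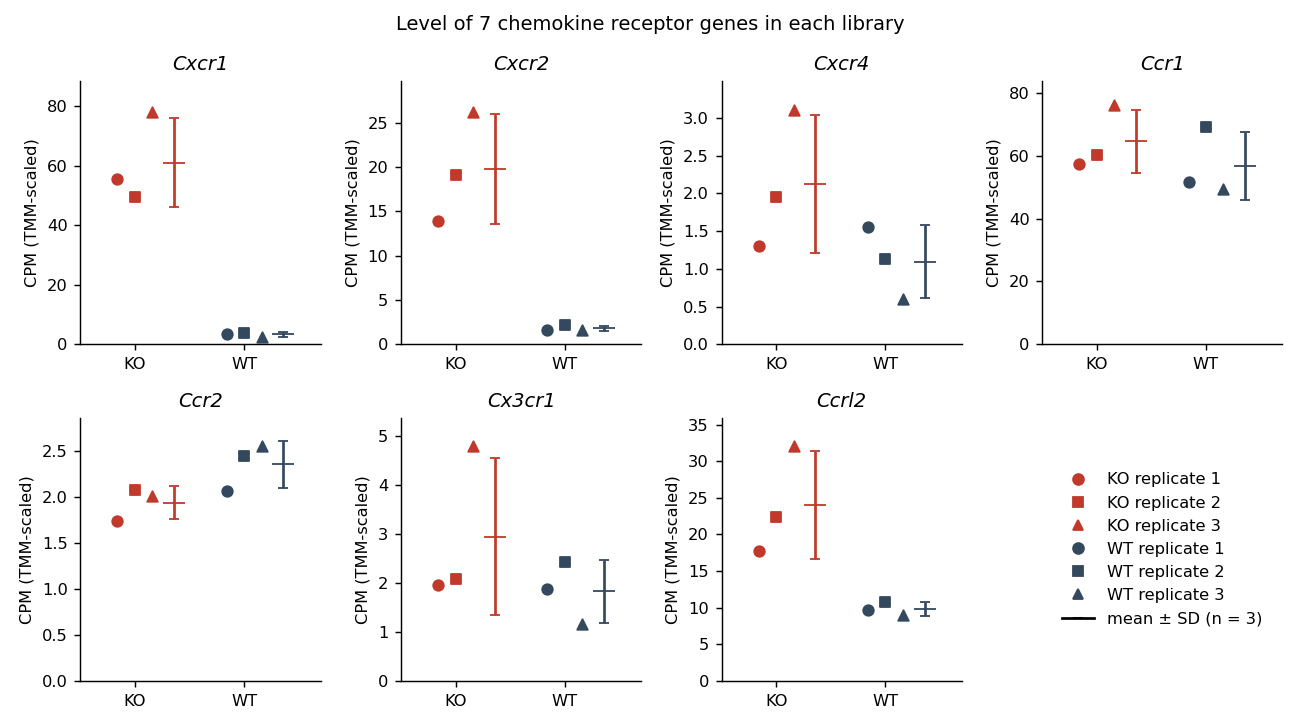
Level of each of the 7 receptor genes in TMM-scaled CPM (vertical axes start at 0 and differ in scale), for KO libraries on the left and WT libraries on the right of each panel; points are libraries, and bars show the mean ± SD of 3. Cxcr1, Cxcr2 and Ccrl2 have all KO libraries above all WT libraries, and in the other 4 panels the groups overlap.

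Cxcr4 (ENSMUSG00000045382), the CXCL12 receptor that retains leukocytes in bone marrow, lies on the minus strand at chr1:128588199-128592293. It stood at 1.31, 1.96 and 3.11 CPM in KO libraries, against 1.56, 1.13 and 0.595 CPM in WT libraries. The lowest KO library was below the highest WT library, and the spread within the KO group was wide. The log2 fold change was 0.96 ± 0.46 (SE), and it was 0.58 without KO replicate 3 and 1.30 without WT replicate 1.

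Cx3cr1 (ENSMUSG00000052336), the fractalkine receptor of patrolling monocytes and many tissue macrophages, lies on the minus strand at chr9:119901616-120068296. It stood at 1.96, 2.08 and 4.80 CPM in KO libraries, against 1.89, 2.43 and 1.17 CPM in WT libraries. KO replicates 1 and 2 lay inside the WT range and KO replicate 3 lay above it. The log2 fold change of 0.70 ± 0.42 (SE) was 0.14 without KO replicate 3. That library also held more of the classical monocyte gene Ly6c2, with 1.18, 0.676 and 13.6 CPM in KO replicates 1 to 3, against 0.881, 0.973 and 0.373 CPM in WT libraries, and the part of such cells in the Cx3cr1 value was not tested.

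Ccr1 (ENSMUSG00000025804), a receptor for several inflammatory CC chemokines, lies on the minus strand at chr9:123962124-123968692. It stood at 57.5, 60.5 and 76.2 CPM in KO libraries, against 51.8, 69.3 and 49.5 CPM in WT libraries, with WT replicate 2 inside the KO range. The log2 fold change was 0.19 ± 0.16 (SE), and its sign depended on the scaling: on library totals it was -0.10, where the median of all tested genes was -0.31.

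Ccr2 (ENSMUSG00000049103), the receptor through which classical monocytes leave the marrow and enter tissue, lies on the plus strand at chr9:124101950-124113557. It was low in both groups, at 1.74, 2.08 and 2.01 CPM in KO libraries, against 2.07, 2.45 and 2.55 CPM in WT libraries. WT replicate 1 was level with KO replicate 2, and the log2 fold change was -0.28 ± 0.28 (SE). This was the one receptor of the 7 with a negative fold change. Counts behind the low receptors were small, at 80, 86 and 121 units for Ccr2 in KO libraries and 113, 151 and 219 units in WT libraries, and the commonest non-zero count was 4 units in every library.

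**Figure D2:**
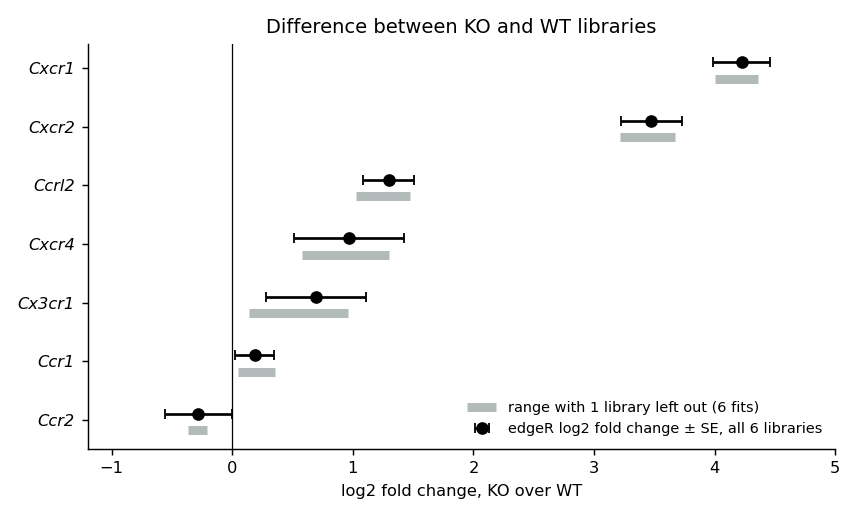
Fitted log2 fold change of each receptor, KO over WT, with its SE (horizontal axis), and as grey bars the range over 6 fits that each left out 1 library. The values run from 4.23 for Cxcr1 to -0.28 for Ccr2, and the grey bar of Cx3cr1 comes down to 0.14.

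The order of the libraries is given as a description, from the same values that chose the genes, and nothing is read from it. KO replicate 3 was the highest KO library for 6 of the 7 receptors, against 34.9% of all tested genes. WT replicate 3 was the lowest WT library for 5 of the 7, against 35.7% of all tested genes. The median log2 fold change of the 7 was 0.96, beside 0.01 for all tested genes.

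Per transcript length, the order of the receptors differed between the groups. In KO libraries Cxcr1 came first with 35.9 ± 15.6 FPKM, followed by Ccr1 with 19.8 ± 6.75 FPKM, Ccrl2 with 8.15 ± 3.98 FPKM and Cxcr2 with 5.70 ± 2.78 FPKM (SD, n = 3). Cxcr4 (1.04 ± 0.636 FPKM), Cx3cr1 (0.590 ± 0.432 FPKM) and Ccr2 (0.242 ± 0.0551 FPKM) followed. Neighbours in this order overlapped for Cxcr1 and Ccr1, for Ccrl2 and Cxcr2, and for Cxcr4 and Cx3cr1.

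In WT libraries Ccr1 came first with 21.3 ± 4.58 FPKM, well clear of Ccrl2 with 3.99 ± 0.541 FPKM and Cxcr1 with 2.28 ± 0.384 FPKM (SD, n = 3). Cxcr2, Cxcr4, Cx3cr1 and Ccr2 lay at 0.619 ± 0.137, 0.610 ± 0.197, 0.420 ± 0.129 and 0.371 ± 0.0927 FPKM, and each of these overlapped its neighbour. Ccr1 was thus the leading receptor of the 7 in WT macrophages, and Cxcr1 had the highest mean in KO macrophages.

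Expressed as a share of the summed FPKM of the 7 genes, Cxcr1 made 53.0%, 46.6% and 50.7% in KO libraries, against 8.99%, 7.71% and 6.69% in WT libraries. Ccr1 made 28.8%, 29.98% and 26.02% in KO libraries, against 69.1%, 73.2% and 72.8% in WT libraries. These shares were close within each group although the sum itself varied, at 54.1, 54.1 and 106.0 FPKM in KO libraries and 24.05, 35.2 and 29.5 FPKM in WT libraries. The ratio of Cxcr1 to Ccr1 within a library, which no scaling between libraries can move, was 1.84, 1.55 and 1.95 in KO libraries, against 0.130, 0.105 and 0.0919 in WT libraries. Cxcr2 made 6.49%, 8.81% and 8.33% in KO libraries, against 1.95%, 2.09% and 2.21% in WT libraries, and Ccrl2 made 9.68%, 12.1% and 11.96% in KO libraries, against 14.03%, 12.4% and 14.3% in WT libraries. The Ccrl2 shares were thus lower in every KO library, although its level was higher.

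**Figure D3:**
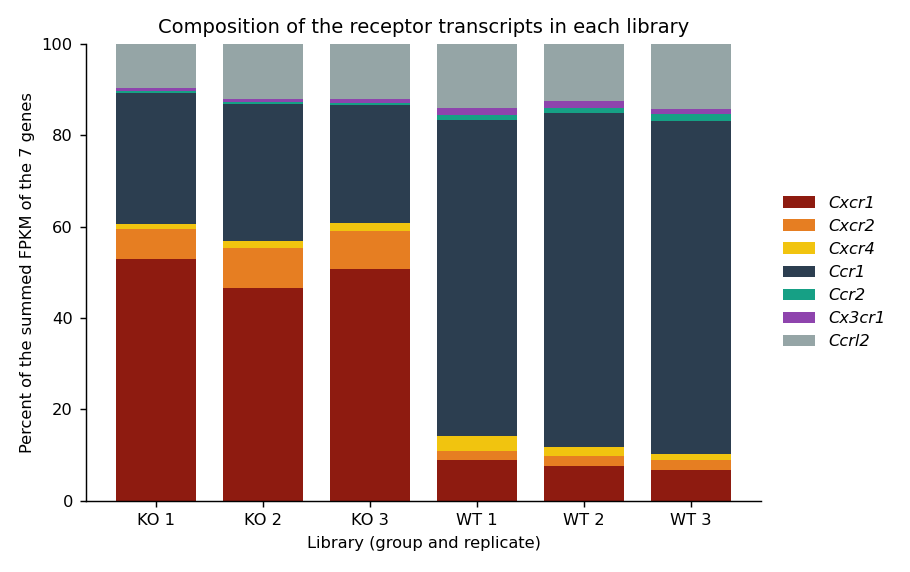
Percent of the summed FPKM of the 7 receptor genes taken by each gene (vertical axis), 1 stacked bar per library, KO libraries on the left and WT libraries on the right. Cxcr1 fills 46.6% to 53.0% of the bar in KO libraries and 6.69% to 8.99% in WT libraries, where Ccr1 fills 69.1% to 73.2%.

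The neighbours of the receptor genes were compared next. Beside this pair, Rufy4 lay 5.77 kb from Cxcr2 and stood at 50.7 ± 3.72 CPM in KO libraries and 43.9 ± 4.17 CPM in WT libraries (SD, n = 3 each), with a log2 fold change of 0.21 (edgeR adjusted p = 0.338). Arpc2, an actin nucleation subunit 41.5 kb from Cxcr1, stood at 642 ± 103 CPM in KO libraries and 628 ± 50.6 CPM in WT libraries, with a log2 fold change of 0.03 (edgeR adjusted p = 0.938). Neither passed the test, and their fold changes were a small fraction of those of the pair they flank. On chromosome 9, Ltf, the lactoferrin gene of neutrophil granules 11.7 kb from Ccrl2, fell to 1.19 ± 0.287 CPM in KO libraries, against 4.73 ± 2.06 CPM in WT libraries (log2 fold change -1.98, edgeR adjusted p = 0.00788). These neighbours were picked after their values were seen.

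Counting could blur some members. Of the 50-base words of the Cxcr2 transcripts, 203 of 3039 also occurred in transcripts of another gene, chiefly A230085B16Rik, and the numbers were 129 of 6758 for Ccr2 and 47 of 4453 for Cx3cr1, chiefly with Gm33858 (GENCODE M21). Cxcr1, Cxcr4, Ccr1 and Ccrl2 shared 0 such words. The annotated span of Cx3cr1 also contains or overlaps 5 other genes of the table, among them Wdr48 and Gorasp1. Its exons overlapped those of 1 gene, Gm33858, by 78 bases, and not those of Wdr48 or Gorasp1. The sources do not state that strand was used in counting, so reads of a gene with overlapping exons could enter the Cx3cr1 value.

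The genes whose profile over the 6 libraries was most like each receptor were found by the root mean square difference of centred log2 CPM, among tested genes with a mean of at least 5 CPM. Nearest to Cxcr1 were Zranb3 (0.197) and Mmp12 (0.334), and nearest to Cxcr2 were Mmp12 (0.207) and 2200002D01Rik (0.231). Mmp12 encodes macrophage elastase and Zranb3 a DNA annealing helicase. Ccrl2 was most like Ppp1r15a (0.0553), a regulator of the translation stress response, and Hilpda (0.116), a lipid droplet protein. Cx3cr1 was most like Plac8 (0.195) and Mul1 (0.242), and Cxcr4 was most like C1qb (0.226) and Ier3 (0.240). Ccr1 was most like Kctd10 (0.0658) and Akirin1 (0.0727), and Ccr2 was most like Ppm1j (0.0230) and Thoc3 (0.0306). This is a likeness over 6 libraries in 2 groups and describes these libraries alone.

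The remaining members of the receptor family did not pass the test. Of 17 other chemokine receptor genes listed, 15 were in the table, 11 were tested, and edgeR called 0, with 0 at an unadjusted p under 0.05 and 0 called by DESeq2. Their median log2 fold change was 0.24. Ccr3, an eosinophil receptor, had 0.152, 0.869 and 0.532 CPM in KO libraries, against 0.0734, 0.195 and 0.292 CPM in WT libraries (log2 fold change 1.44, edgeR adjusted p = 0.339). Ccr4, a T cell receptor for chemokines, had 0.675, 0.507 and 0.0499 CPM in KO libraries, against 0.202, 0.0648 and 0 CPM in WT libraries (log2 fold change 2.23, edgeR adjusted p = 0.325). At the levels of Ccr3 and Ccr4 a difference of moderate size was not detectable. Ccr7, the highest of the list, had 14.8, 17.1 and 12.2 CPM in KO libraries, against 15.6, 12.1 and 10.6 CPM in WT libraries. Its log2 fold change was 0.20 ± 0.19 (SE, edgeR adjusted p = 0.556).

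The ligands of the receptors were tested in the same fit. Of 18 listed ligand genes, 15 were tested: 7 rose in KO libraries, 1 fell and 7 did not pass edgeR's test, beside 5.93% higher and 6.01% lower among all tested genes. Their median log2 fold change was 0.90.

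Ligands of CCR1 led the list. Ccl9, a macrophage CC chemokine, had 350.4, 520.2 and 483.3 CPM in KO libraries, against 95.4, 95.4 and 85.7 CPM in WT libraries. Every KO library was far above every WT library (log2 fold change 2.29, edgeR adjusted p = 2.87e-05). Ccl3, encoding MIP-1 alpha, rose to 72.6 ± 11.1 CPM in KO libraries, against 20.4 ± 2.39 CPM in WT libraries (SD, n = 3 each; log2 fold change 1.83, edgeR adjusted p = 6.28e-05). Ccl6, one of the most abundant transcripts of the cells, rose to 64441 ± 13728 CPM in KO libraries, against 18407 ± 5997 CPM in WT libraries (log2 fold change 1.81, edgeR adjusted p = 0.00886). The calls of Ccl9, Ccl3 and Ccl6 held with any 1 library left out, and their receptor gene Ccr1 overlapped between the groups.

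Among the other CC ligands, Ccl8 rose to 3.79 ± 1.504 CPM in KO libraries, against 1.21 ± 0.391 CPM in WT libraries (log2 fold change 1.64, edgeR adjusted p = 0.0170). Its human counterpart acts on CCR2, while the mouse protein acts on CCR8, so this 1 of the 7 ligands that rose is not a ligand of the 7 receptors in mouse. The call was lost without KO replicate 2 or WT replicate 1, with an adjusted p of up to 0.0888. Ccl5 (log2 fold change 0.93, edgeR adjusted p = 0.0396) and Ccl7 (0.90, edgeR adjusted p = 0.0475) each lost their call in 5 of the 6 fits that left out 1 library, all but those without KO replicate 1 for Ccl5 and without KO replicate 2 for Ccl7, with an adjusted p of up to 0.142 and 0.169. The CCR2 ligand Ccl2 had 13.7, 8.81 and 13.5 CPM in KO libraries, against 8.97, 6.91 and 6.72 CPM in WT libraries, and did not pass the test (log2 fold change 0.68, edgeR adjusted p = 0.0579).

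The ligands listed for the pair CXCR1 and CXCR2 were mixed, and which of these receptors each acts on in mouse was not examined. Cxcl1, encoding KC, had 5.29, 6.73 and 9.02 CPM in KO libraries, against 9.74, 8.11 and 6.47 CPM in WT libraries, and the groups overlapped (log2 fold change -0.20, edgeR adjusted p = 0.649). Cxcl2, encoding MIP-2, had 91.99, 112 and 140.05 CPM in KO libraries, against 82.7, 79.5 and 46.6 CPM in WT libraries, with no overlap but no pass (log2 fold change 0.72, edgeR adjusted p = 0.0584). Cxcl3 rose to 3.62 ± 0.944 CPM in KO libraries, against 1.53 ± 0.329 CPM in WT libraries (log2 fold change 1.23, edgeR adjusted p = 0.0259), but the call was lost in 5 of the 6 fits with 1 library left out, all but that without KO replicate 3, with an adjusted p of up to 0.106. Cxcl5, Ppbp and Cxcl15 were too low to be tested.

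Cx3cl1, the membrane-bound ligand of CX3CR1, was the 1 ligand that fell. It had 4.36, 4.59 and 5.13 CPM in KO libraries, against 15.4, 13.5 and 14.7 CPM in WT libraries, with a wide gap between the groups. The log2 fold change was -1.63 (edgeR adjusted p = 0.000139) and the call held with any 1 library left out. The CXCR4 ligands Cxcl12 (log2 fold change 0.01, edgeR adjusted p = 0.996) and Mif (0.19, edgeR adjusted p = 0.466) and the CCRL2 ligand Rarres2, which encodes chemerin (0.40, edgeR adjusted p = 0.374), did not pass.

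**Figure D4:**
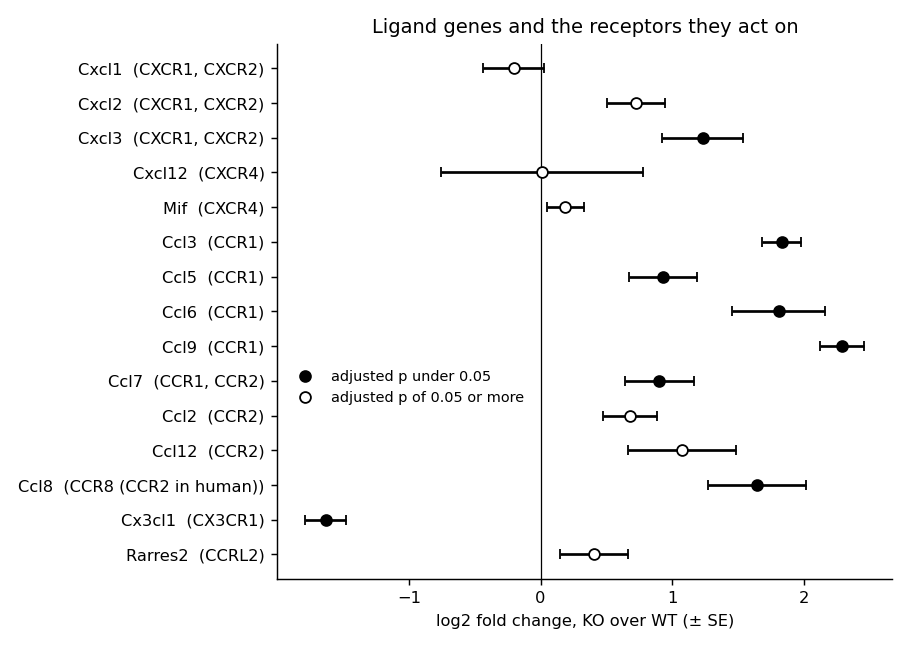
Log2 fold change, KO over WT, with its SE (horizontal axis) for the 15 tested ligand genes, each named with the receptor or receptors listed for it. Filled points passed edgeR's test at an adjusted p under 0.05 and open points did not. Ccl9, Ccl3 and Ccl6, ligands of CCR1, lie at 1.81 to 2.29, and Cx3cl1 lies at -1.63.

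Genes that act downstream of the receptors were tested in the same fit. Of 37 listed signalling and trafficking genes, 36 were tested, of which 4 rose, 3 fell and 29 did not pass, beside 5.93% higher and 6.01% lower among all tested genes, and whether these shares differ was not tested. Their median log2 fold change was -0.08. Rac2, the small leukocyte GTPase needed for neutrophil and macrophage migration, had 526, 426 and 465 CPM in KO libraries, against 239, 216 and 287 CPM in WT libraries. The groups were well apart (log2 fold change 0.94, edgeR adjusted p = 0.00364), and the call held with any 1 library left out but not on library totals or on log2 FPKM. Arrb1, a beta-arrestin that binds phosphorylated receptors, rose to 4.77 ± 0.333 CPM in KO libraries, against 1.03 ± 0.751 CPM in WT libraries (log2 fold change 2.23, edgeR adjusted p = 0.00941).

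The phospholipase gene Plcb2 rose by 0.60 on the log2 scale (edgeR adjusted p = 0.0147), a call lost without KO replicate 3, WT replicate 1 or WT replicate 2 (adjusted p up to 0.0761). The regulatory subunits of PI3K gamma went opposite ways: Pik3r5 rose to 29.02 ± 1.39 CPM in KO libraries, against 20.5 ± 1.35 CPM in WT libraries (log2 fold change 0.50, edgeR adjusted p = 0.0261), and Pik3r6 fell to 15.7 ± 5.28 CPM, against 26.8 ± 1.57 CPM (log2 fold change -0.77, edgeR adjusted p = 0.0420). Both calls were lost in 5 of the 6 fits with 1 library left out, all but that without KO replicate 3, with an adjusted p of up to 0.0941 for Pik3r5 and 0.124 for Pik3r6. The G protein regulator Rgs19 fell by 0.45 on the log2 scale (edgeR adjusted p = 0.0440), a call that held only in the fit without WT replicate 2 (adjusted p up to 0.135 in the other 5).

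Nup85, a nucleoporin also known in human cells to bind CCR2 and help monocyte chemotaxis, fell to 10.7 ± 0.897 CPM in KO libraries, against 18.9 ± 2.04 CPM in WT libraries (SD, n = 3 each; log2 fold change -0.82, edgeR adjusted p = 0.00586), and held with any 1 library left out. The G protein subunits that chemokine receptors use did not pass: Gnai2 had a log2 fold change of -0.07 (edgeR adjusted p = 0.880) and Gnai3 of 0.40 (edgeR adjusted p = 0.0616), and Gnai1 was too low to be tested.

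Because Cxcr1 and Cxcr2 are best known from neutrophils, the marker genes of other cells were set beside them. Of 15 neutrophil markers, 9 were tested, of which Mmp9 rose, Ly6g, Ltf and Csf3r fell and 5 did not pass, beside 5.93% higher and 6.01% lower among all tested genes. The calls of Ltf and Csf3r held with any 1 library left out, that of Ly6g was lost in all 6 such fits (adjusted p up to 0.117), and that of Mmp9 held only without WT replicate 1 (adjusted p up to 0.1255 in the other 5). Of the 9 tested, 6 had a positive log2 fold change, and the median was 0.51. Every KO library was above every WT library for Retnlg, Mmp9 and Il1r2, which held for 15.3% of all tested genes. Every KO library was below every WT library for Ly6g, Ltf and Csf3r, which held for 15.9%. The summed level of the 15 markers was 119 to 128 CPM in KO libraries and 55.0 to 82.0 CPM in WT libraries. Ly6g, Camp and Elane were at 0 in all KO libraries, and Stfa2l1 was at 0 in all WT libraries. Camp and Elane were also at 0 in WT replicates 2 and 3. Ly6g, the mouse neutrophil surface antigen, had 0.312, 0.178 and 0.163 CPM in WT libraries. A count of 0 still allows up to 12 count units, or 3 read pairs, per library.

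Csf3r, the G-CSF receptor of neutrophils, fell to 3.77, 1.47 and 4.12 CPM in KO libraries, against 9.06, 7.93 and 10.6 CPM in WT libraries (log2 fold change -1.55, edgeR adjusted p = 0.0118), the opposite direction to Cxcr1 and Cxcr2. Most of the difference in the summed level lay in Retnlg, with 63.2, 51.3 and 44.1 CPM in KO libraries, against 0, 0.243 and 11.9 CPM in WT libraries (edgeR adjusted p = 0.0680). The alarmin gene S100a8 had 19.2, 23.9 and 26.2 CPM in KO libraries, against 11.5, 23.7 and 13.4 CPM in WT libraries, and Mmp8, the highest of the list by its mean over all 6 libraries, had 32.8, 33.3 and 46.5 CPM in KO libraries, against 26.6, 31.3 and 36.8 CPM in WT libraries.

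**Figure D5:**
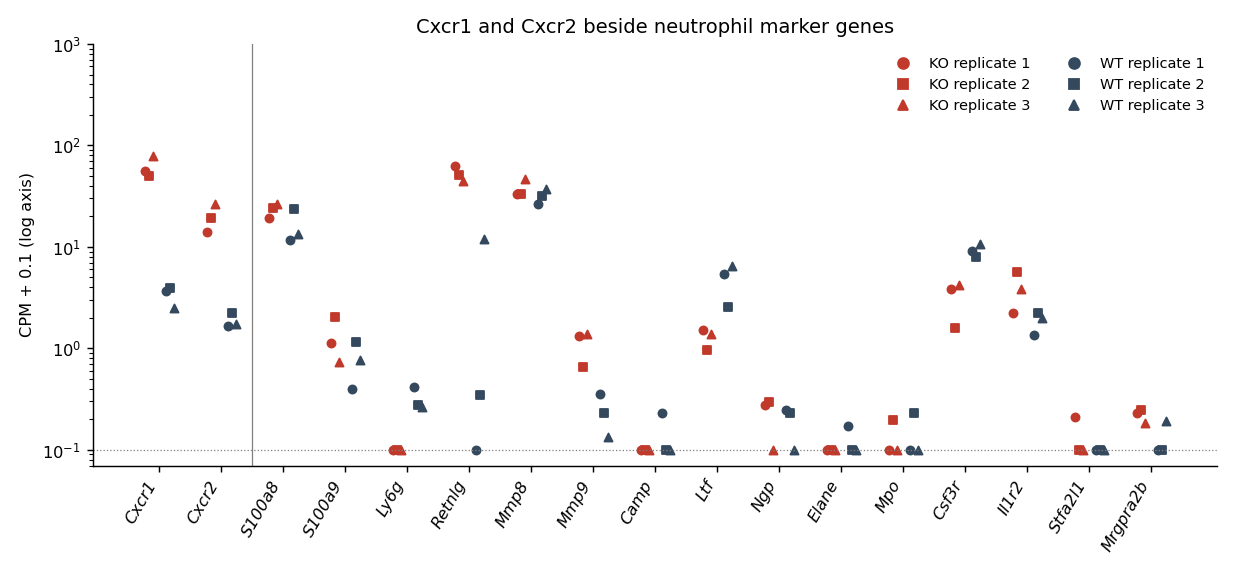
CPM + 0.1 on a log axis for Cxcr1 and Cxcr2 (left of the vertical line) and for the 15 neutrophil markers, 1 point per library, KO left of WT for each gene; the dotted line marks a level of 0. Ly6g, Camp and Elane lie on the dotted line in every KO library, and Camp and Elane also in WT replicates 2 and 3. Csf3r and Ltf lie lower in KO than in WT libraries. Retnlg, Mmp9 and Il1r2 have every KO library above every WT library.

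Markers of other cells were read in the same way. Of 10 interstitial macrophage markers, the complement genes C1qa, C1qb and C1qc rose, and the summed level of the list was 168.9 to 329.1 CPM in KO libraries and 77.4 to 138.4 CPM in WT libraries. C1qb had 67.4, 73.5 and 139.8 CPM in KO libraries, against 49.9, 43.2 and 27.95 CPM in WT libraries, and each of these calls was lost without KO replicate 3 and without WT replicate 3 (adjusted p up to 0.162). KO replicate 3 was highest here as for the receptors. Of 10 monocyte markers edgeR called 0, with 3 at an unadjusted p under 0.05 and 1 called by DESeq2, at a summed 62.7 to 91.9 CPM in KO libraries and 58.3 to 65.0 CPM in WT libraries, and Treml4 was the highest. The part of any of these cells in the receptor values was not tested.

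Of 15 alveolar macrophage markers, Car4 and Marco rose, Siglecf, Cidec, Fcgr1, Fabp1 and Krt79 fell, and 8 did not pass, with Chil3 the highest at 115951 ± 34370 CPM in KO libraries and 106079 ± 35961 CPM in WT libraries. The calls of Fabp1 and Krt79 were lost without KO replicate 2, WT replicate 1 or WT replicate 2, and that of Fabp1 also without KO replicate 3 (adjusted p up to 0.0803). Dendritic cell markers summed to 2.33 to 6.64 CPM in KO libraries and 4.56 to 7.95 CPM in WT libraries, and lymphocyte markers to 24.1 to 36.1 CPM in KO libraries and 20.3 to 35.3 CPM in WT libraries. In both lists edgeR called 0, with 0 at an unadjusted p under 0.05 and 0 called by DESeq2. Cd209a and Cd3d were their highest members. Of 8 markers of eosinophils, basophils and mast cells, 3 were in the table, none could be tested, and Prg2, the highest, averaged 0.190 CPM in KO libraries and 0.0311 CPM in WT libraries. Epithelial and endothelial markers summed to 44.5 to 52.5 CPM in KO libraries and 41.9 to 75.6 CPM in WT libraries, with Scgb1a1 the highest, Kdr and Cldn5 at 0 in KO libraries and Sftpb at 0 in WT libraries. Sftpc and Sftpa1 rose and Krt8 fell, and each of these 3 calls was lost in at least 1 fit with 1 library left out (adjusted p up to 0.165), that of Krt8 only without KO replicate 1 and those of Sftpc and Sftpa1 without KO replicate 3, WT replicate 1 or WT replicate 3. The call of Sftpc was also lost without KO replicate 2, under DESeq2, on library totals, on log2 FPKM and with the replicate block.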

How the data were processed

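Expected (estimated) counts and FPKM per gene were deposited by the authors. Per the submitters' processing notes, the build was GRCm38 and the tools were StringTie, HISAT2, edgeR, DESeq2, FastQC and cutadapt, with no versions, roles or order, and the labels name TRIzol extraction and a NEBNext Ultra library kit. The counts behave as estimates, since the commonest non-zero value was 4 in every library, so 4 units were taken as about 1 read pair, and intervals from them cover counting error only.

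The deposited estimated counts are whole numbers already and were used as they stand, and genes were kept by edgeR's filterByExpr. TMM-scaled counts were tested between 3 KO and 3 WT libraries with edgeR 4.0.16 (quasi-likelihood test, R 4.3.3), with Benjamini-Hochberg adjustment over 14797 genes and a threshold of 0.05, all 6 libraries in the fit and no covariate. Each SE was derived as the absolute log2 fold change divided by sqrt(F). Genes at 0 in a group have a fitted fold change that depends on the prior count of 0.125, so none is printed for them. Levels were compared between genes on the deposited FPKM. DESeq2 1.42.0 and limma 3.58.1 on log2(FPKM + 1) and log2(FPKM + 0.1) were alternatives, beside other scalings, filters and libraries left out. No pair of libraries of a group was alike within sampling noise.

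The 7 receptors, the 4 pathway lists and the 8 marker lists were chosen with earlier results of these data known. Named genes are the 7 receptors, Rack1, up to 4 called genes per direction of each pathway list with its first 3 symbols, the 2 genes most like each receptor, and for each marker list its highest member and those at 0. Other named genes (Ccl5, Ccl7, Ccl2, Cxcl12, Mif, Rarres2, the markers called, Ly6c2, Retnlg, S100a8, Eif2s3y, Xist and the neighbours) were added after their values were seen. Promoters are the 250 bases before each RefSeq start, and transcript words and exon overlaps come from GENCODE M21 on GRCm38. Gene positions are those deposited by the authors, and the deposited end of Cx3cr1 (120068296) differs from its GENCODE M21 end (120069879). Some genes of the lists and some neighbours are not reported here.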

Additional observations from a re-analysis of the deposited data

How the results depend on the processing

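The counts of called genes depended on the processing. In place of 878 genes higher in KO libraries, library totals gave 290, limma 226 on log2(FPKM + 1) and 264 on log2(FPKM + 0.1), and leaving out 1 library gave 455 to 691; in place of 889 lower, leaving out 1 library gave 372 to 565. The median log2 fold change of all genes was -0.31 on library totals, -0.11 on log2(FPKM + 1) and -0.26 on log2(FPKM + 0.1), and genes higher made 23.7%, 22.7% and 22.5% of calls there, against 49.7% with TMM. On log2(FPKM + 1) Cxcr1 was at 3.42, Cxcr2 at 1.97, Ccrl2 at 0.79, Cxcr4 at 0.30 and Ccr1 at -0.13, and on log2(FPKM + 0.1) Cxcr1 was at 3.85, Cxcr2 at 2.93, Ccrl2 at 0.92, Ccr1 at -0.13 and Ccr2 at -0.45. On library totals Ccr1 was at -0.10 and Ccr2 at -0.61. A pseudocount pulls a low gene towards 0 by construction; the cause of the other shifts was not tested. A mean of at least 10 CPM dropped Cxcr4, Ccr2 and Cx3cr1. With 1 library left out, Cxcr1 kept 4.01 to 4.36, Cxcr2 3.21 to 3.67, Ccrl2 1.03 to 1.47, Cxcr4 0.58 to 1.30, Cx3cr1 0.14 to 0.96, Ccr1 0.05 to 0.35 and Ccr2 -0.37 to -0.21. Library numbers were not shown to pair (deviations of same-numbered libraries correlated at 0.03, -0.04 and 0.0003), and with the replicate block 770 genes were higher and 699 lower. Of the 18 ligands, 3 were called higher on library totals and on log2(FPKM + 1), and 4 on log2(FPKM + 0.1), against 7. Alternatives for lists and single list genes were added after seeing the data. Depth limits Cxcr4, Ccr2 and Cx3cr1, which had 51 to 289 count units per library.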

Other observations

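Receptors for attractants other than chemokines were tested in the same fit. Of 18 listed genes, 17 were in the table and 16 were tested, of which 1 rose, 1 fell and 14 did not pass edgeR's test, shares close to the 5.93% higher and 6.01% lower among all tested genes, and their median log2 fold change was 0.23. The formyl peptide receptors, which sense bacterial and mitochondrial peptides, were the genes called. Fpr1 had 987, 889 and 852 CPM in KO libraries, against 539.7, 674.4 and 464.5 CPM in WT libraries (log2 fold change 0.70, edgeR adjusted p = 0.0235). Its call was lost without KO replicate 1, KO replicate 2, WT replicate 1 or WT replicate 3 (adjusted p up to 0.0972), and on library totals and log2 FPKM. Fpr2 had 28.5, 28.5 and 20.2 CPM in KO libraries, against 69.7, 97.3 and 59.4 CPM in WT libraries, with no overlap. It fell by 1.55 on the log2 scale (edgeR adjusted p = 0.000933), a call that held with any 1 library left out.

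The complement receptor C5ar1 was high in both groups, at 424, 453 and 419.8 CPM in KO libraries and 388, 338 and 369.3 CPM in WT libraries, and did not pass (log2 fold change 0.24, edgeR adjusted p = 0.277). Cmklr1, the signalling receptor for the chemerin that CCRL2 binds, stayed under 1 CPM in every library, with 0.218, 0.507 and 0.116 CPM in KO libraries and 0.275, 0.308 and 0.175 CPM in WT libraries (log2 fold change 0.14, edgeR adjusted p = 0.946). Gpr1, another chemerin receptor, was the listed gene with no entry under that symbol in the deposited table, so it has no value here.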
